A study of Mus musculus with 6 samples.

Results

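The genes described here are 10 G protein-coupled receptors of the pancreatic islet, namely the incretin receptors Glp1r and Gipr, Gcgr, Vipr1, Chrm3, P2ry1, Casr, Adra2a, Sstr2 and Sstr3. They were chosen by name, each matched 1 entry of the deposited count table, and they are 10 of its 22923 genes. RNA was sequenced from islets of WT mice and of mice labelled FFA2 global KO, in 3 libraries of each genotype, with islets of 2 mice pooled as 1 sample. The labels give normal chow and an age of 10 to 12 weeks for both genotypes, while the study's supplement names male mice and another age range. Both genotypes came from crosses of heterozygous knockout mice on a C57BL/6J background, and the label gives a global deletion, not one limited to the islet. Islets were isolated with collagenase, picked by hand and left to recover in culture overnight. The study's methods and supplement give triplicates and n = 3 per genotype but do not say outright that each library was its own pool of animals. If it was not, p-values measure only the spread among libraries, which may be technical.

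Islet G protein-coupled receptors act mainly through 3 families of G proteins. Gs activates adenylyl cyclase, and the cAMP that it makes acts through protein kinase A and EPAC2 to amplify insulin secretion when glucose is high. Gq activates phospholipase C beta, which releases calcium from stores and activates protein kinase C. Gi inhibits adenylyl cyclase and lowers insulin secretion. FFA2, the receptor for short chain fatty acids that the mice lack by their label, couples to Gq and Gi, and the comparison of genotypes asks here whether the other receptors that feed into the same pathways are present at the same level.

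Total counts ran from 17067263 to 22792367 per library. Ffar2, the targeted gene, had counts of 774, 559 and 550 in WT replicates 1 to 3 and of 1750, 750 and 673 in the KO-labelled libraries. It was at 29.2 ± 4.23 CPM in WT and 54.0 ± 15.5 in the KO-labelled libraries (SD, n = 3 each), where CPM is the count relative to the library total, after scaling by the trimmed mean of M-values (TMM). All 3 KO-labelled libraries lay above all 3 of WT, as in 5.36% of all genes (log2 fold change 0.89, standard error (SE) 0.21, unadjusted p = 0.00391 and adjusted p = 0.852 by edgeR). The count of the whole gene went against the label. The study states that it determined the genotypes of its mice, but within these data every direction below rests on the label alone. Markers of beta cells (Ero1lb the most abundant) and of endocrine cells in general (Scg2 the most abundant) were present in all libraries, with summed levels of 13095 to 13962 CPM over 14 beta cell genes in WT and 11894 to 13258 in the KO-labelled libraries, and of 30641 to 33042 over 18 endocrine genes in WT and 28024 to 29972 in the KO-labelled libraries. Ins1, Ins2, Iapp, Gcg and Chga were not used here, since the authors' caller skipped them. The endocrine sums did not overlap between genotypes, and 16 of the 18 endocrine genes had a log2 fold change below 0 (median −0.13). Over all genes tested, 6580 of 14082 were below 0 (median 0.016). For 6 of the 18, all KO-labelled libraries lay below all WT libraries, against 5.84% of all genes. The 29 tested genes (of 35 listed, Cpa1 the most abundant) of acinar cells, the enzyme-producing cells around the islets, all had a log2 fold change above 0 (median 1.84) and took 1.57% to 5.84% of the counts in WT and 1.65%, 10.8% and 27.2% in replicates 1 to 3 labelled KO. All 14 tested myeloid genes (of 15 listed, C1qa the most abundant) had a log2 fold change below 0 (median −0.49), with summed levels of 152 to 228 CPM in WT and 117 to 175 in the KO-labelled libraries. The part of these 3 lists in the receptor levels was not tested beyond the endocrine scaling and the acinar covariate given below.

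The genes differ in how their coding sequence is split into exons. The coding sequences of Glp1r, Gipr, Gcgr and Vipr1, which belong to the class B receptors for peptides of the glucagon and secretin family, each lie in 13 exons, and that of Casr, a class C receptor, in 6. Those of Chrm3, P2ry1, Adra2a, Sstr2 and Sstr3, which are class A receptors, lie in 1 exon each in the GENCODE annotation of mm10. Gipr is on chromosome 7 from 19157125 to 19166127, 11.7 Mb from Ffar2, and none of the other genes is on that chromosome. In mm10, as the authors' file gives them, Glp1r lies on chromosome 17 from 30901867 to 30936510, Gcgr on chromosome 11 from 120530727 to 120538984 and Vipr1 on chromosome 9 from 121642716 to 121672954. Chrm3 lies on chromosome 13 from 9876613 to 10360803, P2ry1 on chromosome 3 from 61002795 to 61008979 and Casr on chromosome 16 from 36493696 to 36562134. Adra2a lies on chromosome 19 from 54045182 to 54048982 and Sstr3 on chromosome 15 from 78537015 to 78544345. The authors' entry of Sstr2, on chromosome 11 from 113624257 to 113625636, holds 1380 of 2143 exon bases. It leaves out the first exon of the longer GENCODE transcripts, and it ends before the GENCODE end of the gene at 113626028.

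The promoters of 3 genes, the top pair and the lowest in level per exon length, are shown for the elements they hold. Each is the 250 bases before the RefSeq start in GRCm38.p6, and capitals mark matches on either strand to 3 elements. These are the GC box with the letters GGGCGG, the TATA box with the letters TATAAA and the cAMP response element (CRE) with the letters TGACGTCA. Overlapping matches run together. The RefSeq start is not always the start of the authors' gene span: the last 77 bases of the Adra2a window, its TATA box among them, lie inside that span, and the Sstr2 window lies before the first exon that the authors' entry leaves out. The promoter of Glp1r is at chr17:30901617-30901866 on the plus strand, that of Adra2a at chr19:54045009-54045258 on the plus strand and that of Sstr2 at chr11:113619077-113619326 on the plus strand.
Glp1r: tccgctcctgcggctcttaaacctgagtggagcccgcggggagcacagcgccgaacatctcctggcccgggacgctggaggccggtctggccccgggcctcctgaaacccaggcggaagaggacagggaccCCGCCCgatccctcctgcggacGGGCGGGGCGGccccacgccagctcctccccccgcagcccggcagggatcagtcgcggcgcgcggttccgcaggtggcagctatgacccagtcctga
Adra2a: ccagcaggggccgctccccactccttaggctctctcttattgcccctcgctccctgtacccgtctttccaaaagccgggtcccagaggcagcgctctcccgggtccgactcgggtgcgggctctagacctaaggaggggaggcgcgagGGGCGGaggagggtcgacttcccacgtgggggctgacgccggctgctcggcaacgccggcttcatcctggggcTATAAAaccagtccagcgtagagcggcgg
Sstr2: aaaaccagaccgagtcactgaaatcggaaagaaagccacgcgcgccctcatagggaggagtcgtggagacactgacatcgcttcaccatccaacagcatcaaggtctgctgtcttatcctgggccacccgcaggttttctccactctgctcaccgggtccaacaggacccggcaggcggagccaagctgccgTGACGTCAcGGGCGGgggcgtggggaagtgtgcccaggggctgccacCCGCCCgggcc
Glp1r, the highest of the 10 per exon length, had 3 GC boxes, of which 2 overlap, and no match to the TATA box or the CRE. Adra2a, the second highest, had a TATA box from 29 to 24 bases before the RefSeq start and 1 GC box. Sstr2, the lowest, had a full CRE from 58 to 51 bases before the start and 2 GC boxes. RefSeq promoters were found for 9 of the 10 genes, with 2 windows for Sstr3. Of these 2, 1 lies with all 250 bases inside the authors' span of Sstr3. A short stretch after its start was not found in a GENCODE transcript of the gene, but the window is counted below. The CRE was in 1 of these 10 windows and in 1.55% of all 32851 promoter windows of the same length, the TATA box in 1 of 10 and in 12.4%, and the GC box in 6 of 10 and in 32.7%. An E box (CANNTG), not marked above, was in 4 of 10 and in 66.2%, and a CCAAT box (CCAAT) in 2 of 10 and in 33.8%. These matches are descriptions of the sequence and were not tested against the levels.

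Levels were compared between genes only per exon length, as CPM per kb of the exon bases that lie inside the authors' gene span. Glp1r was the highest, at 129 ± 15.4 CPM per kb (SD over 6 libraries), and ran from 104 to 149. Adra2a, the receptor through which adrenaline and noradrenaline inhibit insulin secretion, followed at 72.8 ± 8.22, and Sstr3, a somatostatin receptor of the mouse beta cell, at 68.4 ± 5.86. Glp1r was above Adra2a in 6 of 6 libraries with ranges that did not overlap, while Adra2a was above Sstr3 in 4 of 6, so these Gi-coupled receptors did not differ beyond their spread. Gipr came next at 31.2 ± 8.53 CPM per kb and its range did not overlap that of Sstr3.

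The middle of the order was flat. Casr (mean 19.4 CPM per kb, range 16.7 to 22.7), Vipr1 (19.2, 17.0 to 20.6), Chrm3 (17.3, 15.3 to 19.1), P2ry1 (17.0, 10.8 to 20.0) and Gcgr (16.5, 13.7 to 18.9) had overlapping ranges over the 6 libraries, and each neighbour in this order was above the next in only 2 to 4 of the 6 libraries. Gipr was above Casr in 6 of 6 libraries although the ranges over all libraries overlapped. Sstr2, the other somatostatin receptor, was at 2.57 ± 0.445 CPM per kb, where Gcgr was 6.42 times as high, and lay under every other gene in all 6 libraries. The order depends on the length used. With the coding length, which is 1284 of 3973 exon bases for Sstr3 and 1389 of 1480 for Glp1r, Sstr3 came first and Glp1r ranked 3. The same held with all exon bases of the gene, of which the authors' span of Glp1r holds 1480 of 5811, while the authors' pooled RPKM kept Glp1r first and Adra2a, Sstr3 and Sstr2 in their places.

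**Figure D1:**
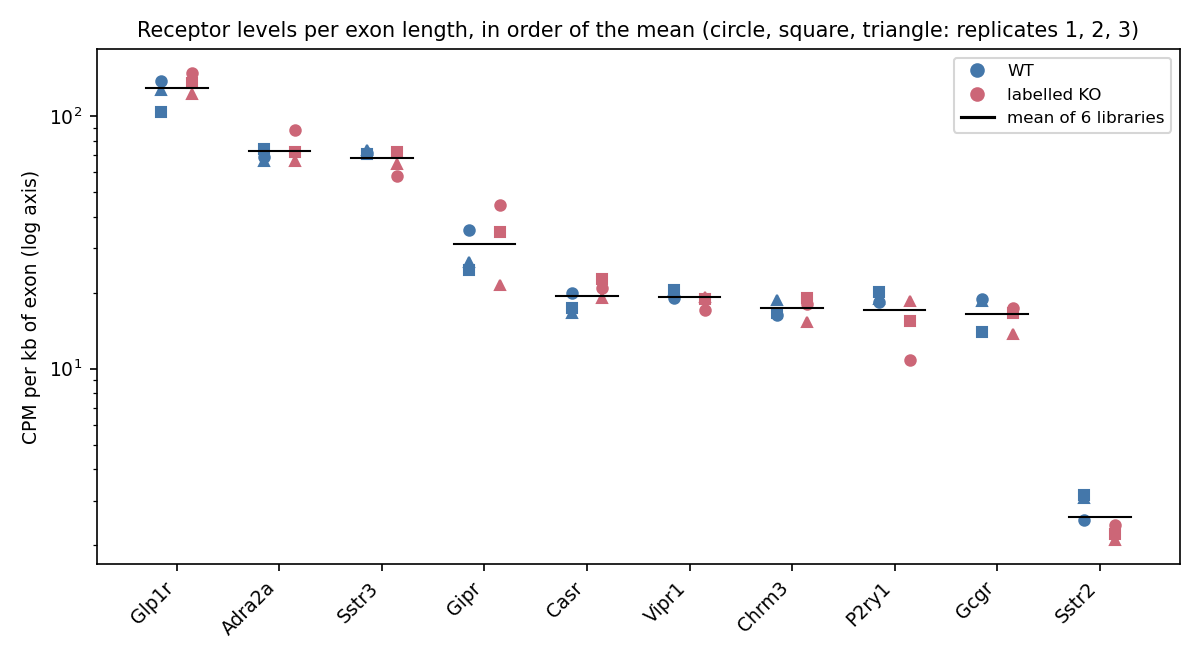
CPM per kb of exon on a log axis for each receptor, ordered by the mean over 6 libraries (black line), with WT libraries in blue and KO-labelled libraries in red, and a circle, square and triangle for replicates 1, 2 and 3. Glp1r stands at the top with 104 to 149, 5 receptors from Casr to Gcgr share a band, and Sstr2 lies apart at 2.09 to 3.16.

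Added up by G protein, the Gs-coupled genes Glp1r, Gipr, Gcgr and Vipr1 made 189 ± 24.4 CPM per kb in WT and 203 ± 25.4 in the KO-labelled libraries (SD, n = 3 each). The Gi-coupled genes Adra2a, Sstr2 and Sstr3 made 145 ± 2.95 and 143 ± 8.43, and the Gq-coupled genes Chrm3, P2ry1 and Casr made 54.3 ± 0.299 and 53.2 ± 3.81. As shares of the 10 genes, Gs took 44.6% to 51.7% in WT and 48.7% to 53.4% in the KO-labelled libraries, Gi took 34.9% to 40.6% and 34.9% to 36.7%, and Gq took 13.4% to 14.8% and 11.7% to 14.5%. The ranges of the genotypes overlapped for each family. Which family led depended on the length used. Over the 6 libraries, Gi took 49.8% to 53.7% and Gs 29.6% to 36.2% with the coding length, and with all exon bases Gi took 45.5% to 49.96% and Gs 30.3% to 37.1%.

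Between genotypes, 0 of the 10 genes passed an adjusted p of 0.05 in edgeR's quasi-likelihood test, 0 had an unadjusted p under 0.05 there, and neither DESeq2 nor limma-voom called any (0 and 0). Of all 14082 genes tested, edgeR called 0%, DESeq2 0.0568% and limma-voom 0%, and an unadjusted p under 0.05 was given by edgeR to 4.69%, with 2.12% lower in the KO-labelled libraries. All 10 genes passed the filter on low counts. Their log2 fold changes, given as labelled KO minus WT, ran from −0.38 (Sstr2) to 0.22 (Gipr), with a median of −0.042 against 0.016 over all genes. Of the 10, 5 were above 0 and 5 below, while 2 were above 0 when libraries were scaled by total counts alone and 6 when they were scaled by endocrine genes. The 95% intervals of all 10 lay within a 2-fold change in either direction, and those of 7 (Glp1r, Gcgr, Vipr1, Chrm3, Casr, Adra2a and Sstr3) within a 1.5-fold change. In whole islets, fewer cells of a type and less RNA per cell cannot be told apart.

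**Figure D2:**
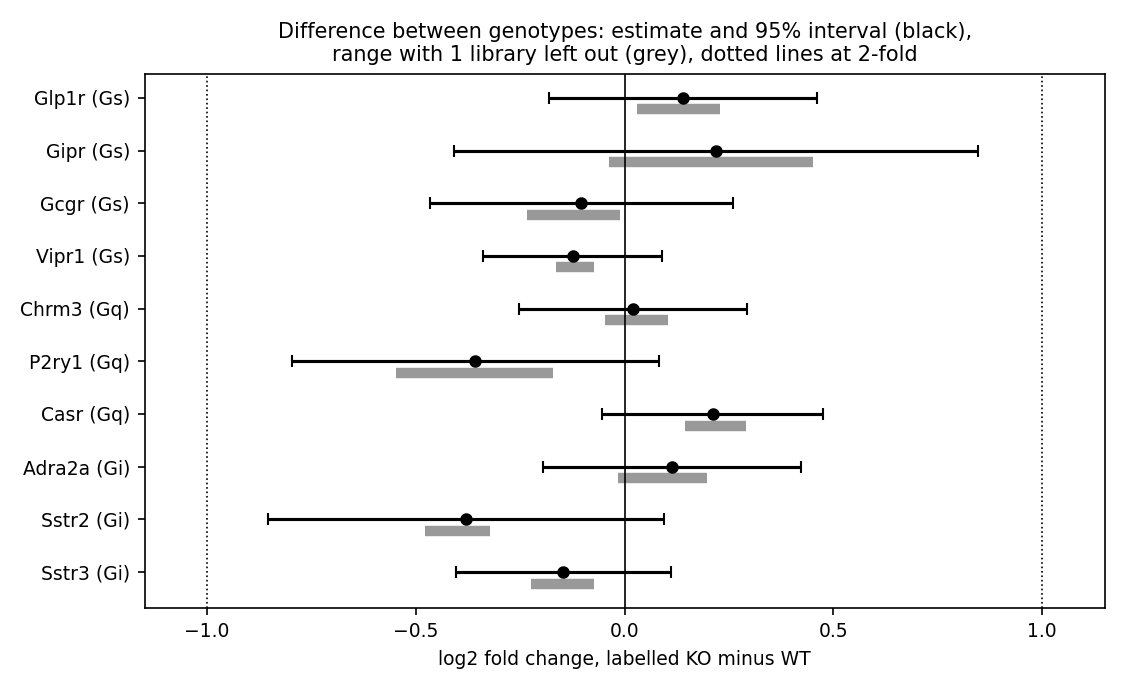
Log2 fold change of each receptor (labelled KO minus WT) with its 95% interval in black, the range over fits with 1 library left out in grey, and dotted lines at a 2-fold change. All 10 intervals cross 0 and lie inside the dotted lines, from −0.85 for Sstr2 to 0.85 for Gipr.

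The incretin receptors carry the signals of GLP-1 and GIP, gut hormones that raise insulin secretion after a meal. Glp1r was at 204, 154 and 188 CPM in WT replicates 1 to 3 and at 220, 199 and 181 in the KO-labelled libraries. The groups overlapped, with WT replicate 2 the lowest of the 6 libraries and labelled KO replicate 1 the highest. The log2 fold change of Glp1r was 0.14 (SE 0.14, 95% interval −0.18 to 0.46, edgeR adjusted p = 0.876), and as a ratio to WT this interval runs from 0.881 to 1.38. It was 0.029 without WT replicate 2 and 0.23 without WT replicate 1. With total counts alone, under which the median of all genes was −0.14, it was −0.0043.

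Gipr was at 63.6, 44.0 and 47.4 CPM in WT and at 79.5, 62.1 and 38.6 in the KO-labelled libraries. Its coefficient of variation in WT, 20.3%, was above those of the other 9 genes, and the KO-labelled libraries held both its highest and its lowest value. Its log2 fold change was 0.22 (SE 0.27, 95% interval −0.41 to 0.85, edgeR adjusted p = 0.896), and it was −0.038 without labelled KO replicate 1 and 0.45 without labelled KO replicate 3. Its values fell as the acinar share of the KO-labelled libraries rose, as did those of Glp1r, Gcgr, Adra2a and Sstr2 and of 27.2% of all genes, while those of Vipr1 and P2ry1 rose with it, as did 27.4% of all genes. In WT, Gipr was at 47.4, 63.6 and 44.0 CPM in the libraries with acinar shares of 1.57%, 4.88% and 5.84%. The part of the acinar share in these values was not tested beyond a fit with the acinar genes as a covariate, in which Gipr was at 0.38 and none of the 10 genes passed.

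Gcgr encodes the receptor through which glucagon from alpha cells acts on neighbouring cells. It was at 36.5, 26.9 and 35.6 CPM in WT and at 33.6, 32.1 and 26.4 in the KO-labelled libraries, with overlapping groups and a log2 fold change of −0.10 (SE 0.15, edgeR adjusted p = 0.916). It was −0.23 without WT replicate 2 and −0.010 without labelled KO replicate 3. When libraries were scaled by endocrine genes, with the median of all genes at 0.12, its value was 0.0024. Vipr1, which encodes the VPAC1 receptor for the neuropeptides VIP and PACAP, was at 93.0, 101 and 101 CPM in WT and at 83.4, 92.6 and 94.3 in the KO-labelled libraries. Labelled KO replicates 1 and 2 lay below all WT libraries and replicate 3 did not. Its log2 fold change was −0.12 (SE 0.091, 95% interval −0.34 to 0.090, edgeR adjusted p = 0.852), the narrowest interval of the 10 genes.

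**Figure D3:**
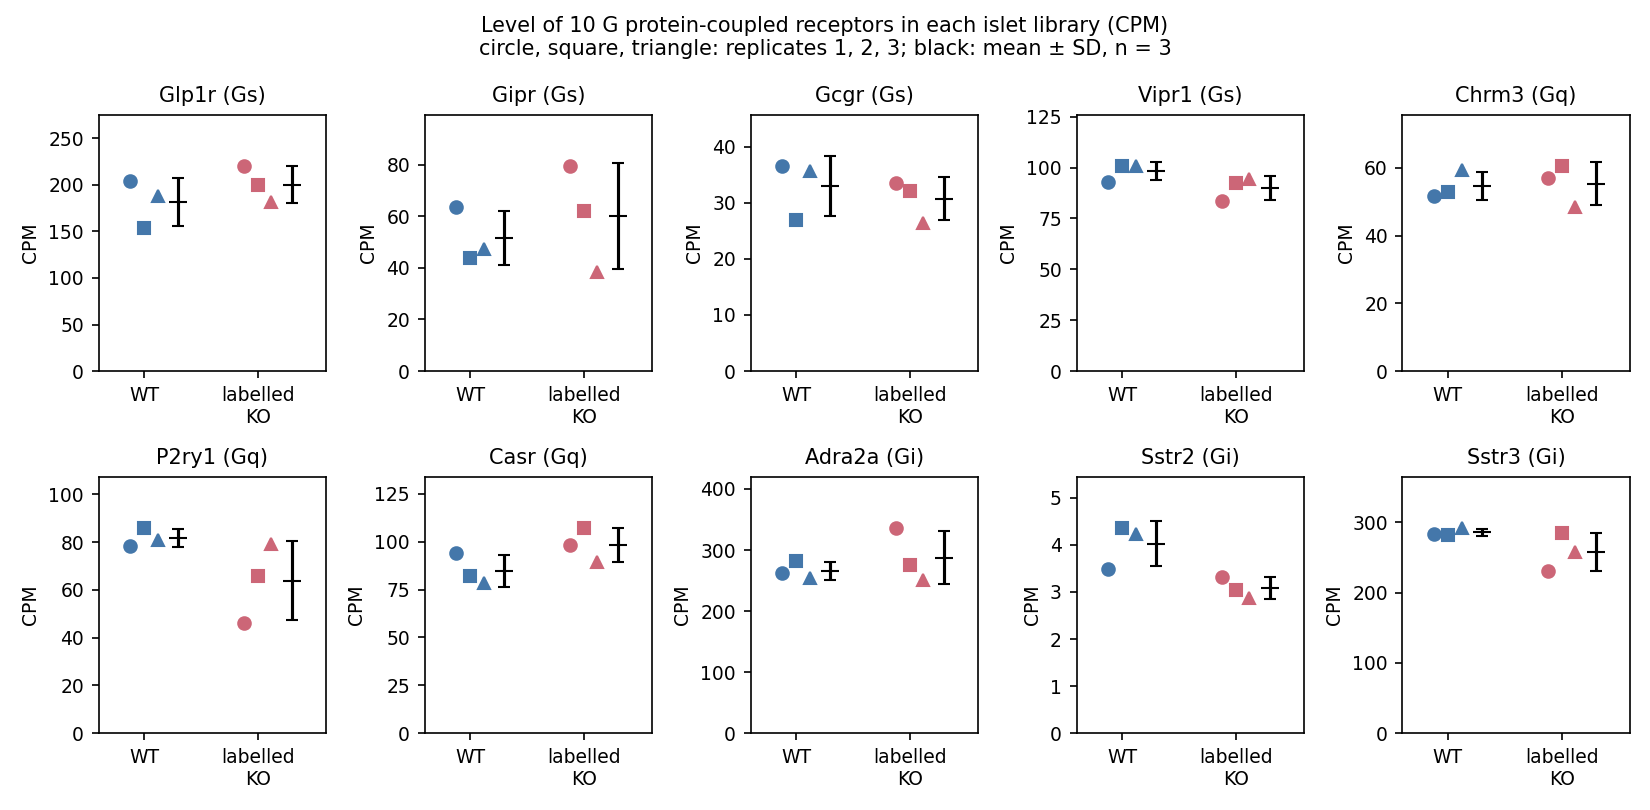
CPM of each receptor in each library, with WT in blue and KO-labelled libraries in red, replicates 1, 2 and 3 as circle, square and triangle, and the mean ± SD (n = 3) in black. The genotypes overlap for every receptor except Sstr2, and P2ry1 spreads from 46.3 to 79.4 in the KO-labelled libraries.

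Of the Gq-coupled receptors, Chrm3 encodes the M3 muscarinic receptor, through which acetylcholine raises insulin secretion. It was at 51.7, 52.8 and 59.3 CPM in WT and at 57.1, 60.5 and 48.4 in the KO-labelled libraries, and its log2 fold change of 0.020 (SE 0.12, 95% interval −0.25 to 0.29, edgeR adjusted p = 0.978) was the nearest to 0 of the 10 genes. Its sign turned to −0.12 under scaling by total counts alone and with 1 of 4 libraries left out, where it ran down to −0.047, and the groups overlapped. Casr, the calcium-sensing receptor, was at 94.2, 81.8 and 78.5 CPM in WT and at 98.2, 107 and 89.3 in the KO-labelled libraries. Only WT replicate 1 reached into the range of the KO-labelled libraries. The log2 fold change of Casr was 0.21 (SE 0.11, 95% interval −0.054 to 0.47, edgeR adjusted p = 0.852), and it kept its sign in all 18 alternatives.

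P2ry1 encodes a receptor for ADP, which is released with ATP from insulin granules. It was at 78.6, 85.9 and 80.9 CPM in WT and at 46.3, 66.1 and 79.4 in the KO-labelled libraries. Labelled KO replicates 1 and 2 lay below all WT libraries, while replicate 3, the library with an acinar share of 27.2%, lay within the WT range. Its log2 fold change of −0.36 (SE 0.19, 95% interval −0.80 to 0.082, edgeR adjusted p = 0.852) had the lowest p of the 10 genes (unadjusted p = 0.0959, rank 1427 of 14082). It was −0.17 without labelled KO replicate 1, −0.55 without labelled KO replicate 3 and −0.58 with the acinar genes as a covariate, where its unadjusted p was 0.00110 and its adjusted p 0.149 from edgeR, in a fit that gave an unadjusted p under 0.05 to 19.1% of all genes. Over all 18 alternatives its adjusted p ran from 0.149 to 0.999.

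Of the Gi-coupled receptors, Adra2a was at 262, 281 and 254 CPM in WT and at 336, 275 and 252 in the KO-labelled libraries. Its log2 fold change was 0.11 (SE 0.13, edgeR adjusted p = 0.888) with overlapping groups, and it rested on labelled KO replicate 1, without which it was −0.015. Under scaling by total counts alone it was −0.022. Sstr3 was at 283, 282 and 292 CPM in WT, the tightest of the 10 genes with a coefficient of variation of 1.87%, and at 231, 285 and 258 in the KO-labelled libraries. Labelled KO replicate 2 lay within the WT range and the other two below it. Its log2 fold change was −0.15 (SE 0.11, 95% interval −0.40 to 0.11, edgeR adjusted p = 0.852).

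Sstr2 encodes the somatostatin receptor best known for inhibiting glucagon secretion from alpha cells. Its counts were 79, 90 and 88 in WT and 81, 52 and 42 in the KO-labelled libraries, which gave 3.48, 4.35 and 4.24 CPM and 3.32, 3.04 and 2.88 CPM. All 3 KO-labelled libraries lay below all 3 WT libraries, and Sstr2 was the only one of the 10 genes whose groups did not overlap. Over all genes, 5.84% did not overlap with the KO-labelled libraries lower, and 11.2% in either direction, so 1 of 10 is near the background. Its log2 fold change was −0.38 (SE 0.20, 95% interval −0.85 to 0.094, edgeR adjusted p = 0.852). At its lowest count, 42, the counting error is 15.4% of the value. The summed level of 8 tested alpha cell genes, without the skipped Gcg, was 2671 to 3583 CPM in WT and 2211 to 2985 in the KO-labelled libraries, and its part in the level of Sstr2 was not tested.

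A ratio of 2 genes within a library does not depend on how libraries are scaled. Of the 45 pairs of the 10 genes, 6 (13.3%) had ratios that did not overlap between genotypes, against 10.2% of all pairs of tested genes, and 4 of the 6 have Sstr2 as the lower partner. The level per kb of Glp1r relative to that of Gcgr was 7.28, 7.45 and 6.86 in WT and 8.55, 8.09 and 8.95 in the KO-labelled libraries. That of Casr relative to Sstr3 was 0.281, 0.245 and 0.227 in WT and 0.359, 0.316 and 0.292 in the KO-labelled libraries. These pairs share genes and were not tested.

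Across libraries, the highest and lowest values gathered in labelled KO replicates 1 and 3. Labelled KO replicate 1 held the highest value of Glp1r, Gipr and Adra2a and the lowest of Vipr1, P2ry1 and Sstr3, so 6 of the 10 genes had an extreme there, as did 56.9% of all genes. Labelled KO replicate 3 held the lowest value of 5 genes (Gipr, Gcgr, Chrm3, Adra2a and Sstr2) and the highest of none, where 20.8% of all genes had their lowest value and 21.9% their highest. WT replicates 1, 2 and 3 held an extreme of 1, 3 and 3 of the 10 genes, against 22.7%, 29.9% and 27.5% of all genes, and labelled KO replicate 2 of 2, against 20.2%.

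**Figure D4:**
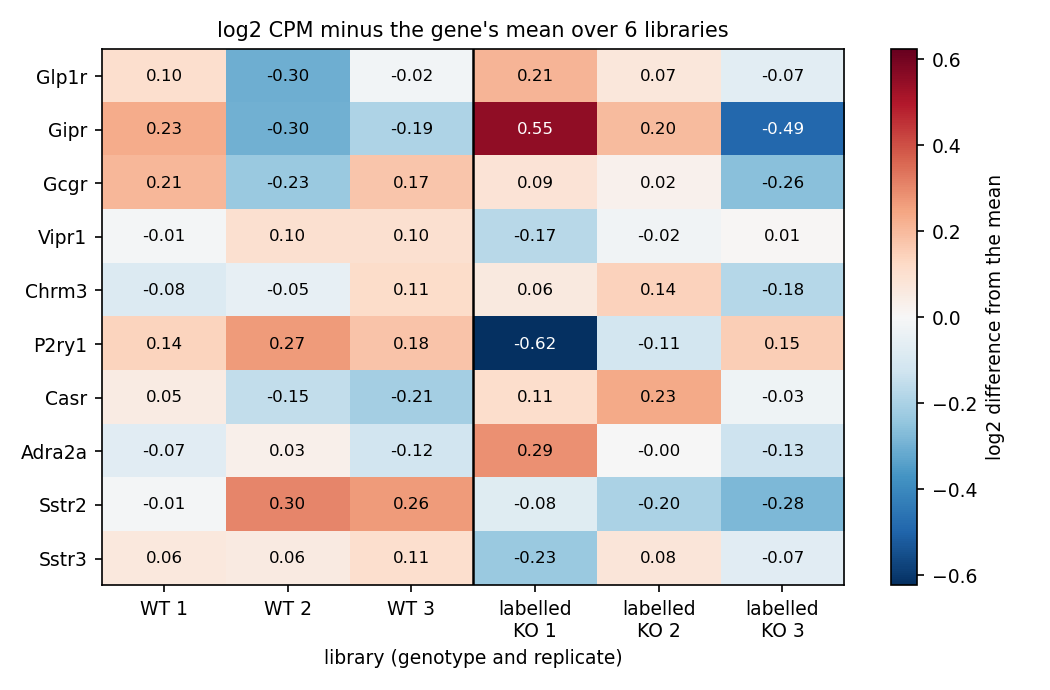
Log2 CPM of each receptor minus its mean over the 6 libraries, by library, with red above and blue below the mean and a black line between the genotypes. Labelled KO replicate 1 has Gipr at 0.55 and P2ry1 at −0.62, and in labelled KO replicate 3 Gipr is at −0.49.

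The pair of receptors with the most alike profiles was Vipr1 and Sstr3, with a root mean square difference of 0.067 between their centred log2 CPM over 6 libraries, followed by Glp1r and Casr at 0.13. In the whole table, the nearest gene differed by 0.013 to 0.055 on this measure, against 0.091 (Vipr1) to 0.36 (Gipr) for the spread of the receptors about their own means. The nearest genes were Ubr1 for Glp1r, Agfg2 for Gipr, 4932415G12Rik for Gcgr, Smyd2 for Vipr1, 5730528L13Rik for Chrm3, Bcmo1 for P2ry1, Zfp13 for Casr, Ccdc64 for Adra2a, Eci2 for Sstr2 and 2700029M09Rik for Sstr3. This likeness is a description over 6 libraries that share their scaling.

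Other receptors of the same 3 families were read from lists. Of 12 other Gs-coupled receptors tested (of 23 listed), 17 other Gq-coupled receptors (of 33) and 22 other Gi-coupled receptors (of 44), 0 passed in edgeR, DESeq2 or limma-voom and 0 had an unadjusted p under 0.05 in edgeR, with median log2 fold changes of −0.049, 0.069 and −0.047. The lowest p among them was that of P2ry14, a receptor for UDP-sugars, at 3.26, 2.52 and 1.35 CPM in WT and 1.68, 5.68 and 17.2 in the KO-labelled libraries. Its values rose with the acinar share within the KO-labelled libraries, as did 27.4% of all genes (log2 fold change 1.76, SE 0.78, edgeR adjusted p = 0.852). In WT it was at 1.35, 3.26 and 2.52 CPM at acinar shares of 1.57%, 4.88% and 5.84%. The part of the acinar share in these values was not tested. Galr1, a Gi-coupled galanin receptor, was at 45.4, 50.2 and 49.2 CPM in WT and 41.7, 43.5 and 44.5 in the KO-labelled libraries, and was 1 of 22 genes of its list whose groups did not overlap, near the 5.84% of all genes lower in this way (log2 fold change −0.16, SE 0.088, edgeR adjusted p = 0.852). Vipr2, the VPAC2 receptor for VIP and PACAP, had a log2 fold change of 0.66 (SE 0.43), and Gpr3, an orphan receptor that couples to Gs, one of −0.62 (SE 0.35). Among Gq-coupled receptors, the lowest p values were those of the oxytocin receptor Oxtr (0.46, SE 0.36) and of Ptger1, a receptor for prostaglandin E2 (0.17, SE 0.14). The groups of these 4 genes overlapped.

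Genes for ligands and signalling steps next to these receptors did not pass either where they were tested. Of 11 ligands or ligand-making enzymes tested (of 19), 0 passed in any of the 3 tools and 0 had an unadjusted p under 0.05. Their median log2 fold change was −0.14, with 9 below 0 and 2 above, against 6580 of 14082 below 0 over all genes. Not tested were the ligand genes Gcg, which was skipped, and Gip and Adcyap1, with totals of 0 and 52 counts. Npy, which encodes neuropeptide Y, was at 12.7, 22.0 and 6.98 CPM in WT and 5.25, 4.45 and 10.6 in the KO-labelled libraries, with overlapping groups (log2 fold change −1.05, SE 0.48, edgeR adjusted p = 0.852). Tph2, an enzyme of serotonin synthesis, was lower in all 3 KO-labelled libraries than in any WT library, as were 5.84% of all genes. It was the only gene among the 11 whose groups did not overlap. Its log2 fold change was −0.70 (SE 0.33, adjusted p = 0.852 by edgeR), on counts of 14 to 64. Vip, which encodes a ligand of Vipr1 and is named after its values were seen, had overlapping groups. It was at 54.1 ± 43.7 CPM in WT and 23.6 ± 19.9 in the KO-labelled libraries (SD, n = 3 each, log2 fold change −1.21, SE 0.75, edgeR adjusted p = 0.852). Of 39 genes of cAMP signalling, all tested, 0 passed in any tool and 0 had an unadjusted p under 0.05, with a median log2 fold change of 0.061. Those of lowest p were Adcy8, a calcium-stimulated adenylyl cyclase (−0.67, SE 0.29, on counts of 19 to 55), and Prkaca, a catalytic subunit of protein kinase A. Prkaca was at 166, 175 and 175 CPM in WT and at 148, 158 and 155 in the KO-labelled libraries, and its groups, like those of Adcy8 and 1 other gene of the 39, did not overlap, with the KO-labelled libraries lower, as in 5.84% of all genes (log2 fold change −0.16, SE 0.086, edgeR adjusted p = 0.852).

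Of 23 genes tested (of 26) that regulate receptors, among them G protein-coupled receptor kinases, arrestins and RGS proteins, 0 passed in any tool and 1 had an unadjusted p under 0.05. This was Rgs4, which speeds the return of Gi and Gq to their inactive state. It was at 209, 231 and 196 CPM in WT and at 416, 210 and 499 in the KO-labelled libraries, so that labelled KO replicate 2 lay within the WT range and the other two well above it (log2 fold change 0.82, SE 0.29, edgeR adjusted p = 0.852). Rgs16, of the same family, was at 88.2, 86.1 and 87.5 CPM in WT and 99.5, 90.2 and 118 in the KO-labelled libraries, and its groups did not overlap, as in 5.36% of all genes with the KO-labelled libraries higher (log2 fold change 0.23, SE 0.11, edgeR adjusted p = 0.852). Arrb2, which encodes beta-arrestin 2 and is named after its values were seen, was the other gene of this list whose groups did not overlap. The KO-labelled libraries were lower for Arrb2, as in 5.84% of all genes. It was at 28.4 ± 1.01 CPM in WT and 25.0 ± 2.01 in the KO-labelled libraries (SD, n = 3 each, log2 fold change −0.18, SE 0.10, edgeR adjusted p = 0.852). Both Rgs4 and Rgs16 were highest in labelled KO replicate 3 and next highest in labelled KO replicate 1.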

How the data were processed

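Counts per gene came from 6 islet RNA libraries, 3 WT and 3 labelled FFA2 global KO. The authors aligned reads with TopHat2 2.0.8b to mm10 and ran Cufflinks and Cuffdiff 2.1.1. The deposited values are estimated counts, rounded here. How reads were counted, and whether strand was used, is not given in the sources used here. The authors' RPKM are pooled per genotype. Their log2 fold changes, test statistics (a score) and p-values in the deposited comparison were not used. Of 22923 genes, 158 names with several values (0.103% to 0.169% of counts) and 15 genes skipped by the authors' Cuffdiff run (2.27% to 8.21% of counts in WT, 1.08% to 1.81% in the KO-labelled libraries) were left out.

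With filterByExpr (default settings, a count of 10 and a total of 15), 14082 of 22750 genes were kept. TMM and edgeR 4.0.16 (quasi-likelihood fit and test with genotype as the only term, R 4.3.3) gave fold changes, standard errors, 95% intervals and Benjamini-Hochberg adjusted p over all genes, with a threshold of 0.05. Log2 CPM used a prior count of 2. Exon lengths are from GENCODE M21, inside the authors' span. The fit was also run on counts simulated gene by gene from its own estimates. These hold no acinar difference shared between libraries, so they cannot show how well the model suits these data. Alternatives were DESeq2 1.42.0, limma-voom (limma 3.58.1), robust fitting, RLE, upper-quartile, total-count and endocrine scaling, other filters, the skipped genes kept, a replicate block, an acinar covariate, an adjusted p of 0.1 and each library left out. Named genes are the 10 receptors, Ffar2, the nearest profile of each receptor and, for each list in which none passed, the 2 genes of lowest p. Members and lists were chosen with earlier results of these data known. Other lengths for the order of levels (all exon bases) and the sums by G protein and the alternatives for the lists were added after the data were seen.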

Additional observations from a re-analysis of the deposited data

How the results depend on the processing

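None of the 10 receptors passed an adjusted p of 0.05 in any of the 18 alternatives, and none of the 6 lists had a gene that passed in any. Over all genes, 1 passed without a filter, 8 in DESeq2 and 1 at an adjusted p under 0.1, and the cause was not tested. With the skipped genes kept as listed, 11 passed, 10 of them lower in the KO-labelled libraries. The skipped genes are listed without counts in a whole group though they are abundant islet or acinar genes. The 11 are therefore not read as a result about genotype. The median of all genes moved by −0.16 under total counts alone and by 0.10 under endocrine scaling. Signs turned under total counts alone for Glp1r (−0.0043), Chrm3 (−0.12) and Adra2a (−0.022), which relative to that median were 0.13, 0.018 and 0.12, and under endocrine scaling for Gcgr (0.0024), where the scaling moved all genes together. With 1 library left out, Gipr ran from −0.038 to 0.45, Chrm3 from −0.047 to 0.10, Adra2a from −0.015 to 0.20, Vipr1 from −0.16 to −0.072 and Sstr3 from −0.22 to −0.074. P2ry1, Casr, Sstr2, Sstr3 and Vipr1 kept their signs in all 18. Of the 10 places in the order of levels, 4 held with coding length, 5 with all exon bases and 6 with the authors' pooled RPKM. Same-numbered libraries did not deviate together (correlations of 0.11, −0.14 and −0.34 over genes, while WT replicates 1, 2 and 3 correlated best with labelled KO replicates 2, 3 and 1, at 0.23, 0.59 and 0.39), and with the replicate number as a block 0 genes passed and P2ry1 was at −0.39. Sstr2 is limited by its 42 to 90 counts.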
